A study of Mus musculus with 24 samples.

Results

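The complement genes of this comparison are those of C1q (C1qa, C1qb, C1qc), the components C3 and C4b, and the inhibitors Serping1 and Cd59a. Members were all probe sets whose only gene symbol in the platform annotation is one of these 7. That gave 8 probe sets for 5 genes, of 45037 on the array: 1 for C1qa, 3 for C1qb, 1 for C1qc, 1 for Serping1 and 2 for Cd59a. C3 has no probe set under its symbol in that annotation, and the probe set that carries C4b also carries C4a, so both genes were not analysed here. Values are GCRMA levels, read as log2, so a difference of 1 is a 2-fold change. A value under 4 was treated as background, and all 8 probe sets averaged at least 4 in striatum or in cerebellum.

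RNA came from the striatum and the cerebellum of mice homozygous for HdhQ111, which carries an expanded CAG repeat in the mouse huntingtin gene, and of mice with 2 wild-type Hdh alleles (Hdh+/Hdh+, labelled Q7/Q7). The titles give 3 to 10 weeks for every array and not the age of each, so the balance of age between the groups cannot be checked. There were 6 arrays in each of the 4 groups: Q111 striatum, wild-type striatum, Q111 cerebellum and wild-type cerebellum. The expanded repeat sits in the mouse gene itself, so every cell that expresses huntingtin carries it. The labels give neither sex nor strain. They number the replicates 1 to 6 without naming separate animals, so each p-value reflects variation among the arrays given, part of which could be technical.

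Complement is a cascade of proteins that tag cells and debris for removal. C1q, the recognition part of the first component, is built of C1qa, C1qb and C1qc chains. Once bound, it starts the classical pathway, in which C4, C2 and then C3 are cleaved and lead on to the membrane attack complex. Serping1 encodes the C1 inhibitor, a serpin that blocks the proteases bound to C1q, and Cd59a encodes a membrane-anchored protein that blocks the last step of the attack complex. In brain, microglia are the main source of C1q, which tags synapses for pruning during development.

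Genes known to mark the tissues read high in the tissue named by the label. Drd2, a receptor gene of striatal projection neurons, read 10.76 to 11.48 in Q111 striatum and 10.71 to 11.84 in wild-type striatum, and at most 2.69 in any cerebellum array. Pcp2, of Purkinje cells, read at most 3.85 in striatum and at least 14.19 in every cerebellum array. Nudt19, a Nudix hydrolase gene, separated the genotypes in both tissues without overlap: 6.73 to 7.08 in Q111 striatum against 8.44 to 8.73 in wild-type striatum, and 5.39 to 6.38 in Q111 cerebellum against 7.61 to 8.11 in wild-type cerebellum. Drd2, Pcp2 and Nudt19 were named after their values were seen, so they are descriptions and no check of the tissue or genotype labels. Correlations between arrays of the same group were 0.994 to 0.998 (n = 6 arrays a group). Within each tissue, and over both genotypes together, arrays numbered 1 to 3 had nearly the same mean as those numbered 4 to 6. For the 8 complement probe sets they differed by at most 0.07 in striatum and 0.10 in cerebellum. No label records a step that makes them equal, so differences within each of these number sets are given beside the pooled ones.

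C1qa, C1qb and C1qc lie next to each other on mouse chromosome 4, in the order C1qb, C1qc, C1qa. Because their probe sets moved in the same direction, the 250 bases before the start of C1qb and C1qc are shown, from RefSeq on GRCm38.p6, both from the minus strand (chr4:136886201-136886450 for C1qb and chr4:136892915-136893164 for C1qc). Capitals mark GAGGAA or its reverse complement TTCCTC, the letters at the core of sites for the myeloid transcription factor PU.1.
C1qb: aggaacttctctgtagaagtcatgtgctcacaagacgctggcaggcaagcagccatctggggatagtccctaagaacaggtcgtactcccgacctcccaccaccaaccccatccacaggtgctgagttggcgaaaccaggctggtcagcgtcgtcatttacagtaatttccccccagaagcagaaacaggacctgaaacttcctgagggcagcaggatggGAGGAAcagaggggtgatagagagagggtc
C1qc: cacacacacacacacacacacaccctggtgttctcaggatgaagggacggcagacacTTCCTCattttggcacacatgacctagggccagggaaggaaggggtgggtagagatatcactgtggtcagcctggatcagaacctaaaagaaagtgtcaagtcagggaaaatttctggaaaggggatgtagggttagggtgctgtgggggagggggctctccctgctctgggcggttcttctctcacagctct
The match begins 30 bases before the start of C1qb, on the strand of the gene, and 193 bases before the start of C1qc, on the other strand. These letters also occur in the window of Cd59a and in 7639 of 32851 promoters of the same length (23.3%). A match is a description of the sequence and no evidence of binding. The table held 4 of the 7 members, C1qb, C1qc, C3 and Cd59a.

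The first comparison asks whether complement RNA differs between Q111 and wild type in striatum, the tissue most affected in Huntington's disease. All 3 genes of C1q rose in Q111 striatum, by 0.44 to 1.04 log2, and all 5 of their probe sets passed the test. Neither Serping1 nor Cd59a passed. The test was limma's moderated test on all 24 arrays with Benjamini-Hochberg adjustment over the 20738 probe sets kept, with a threshold of 0.05. Of all kept probe sets, 0.834% rose in this comparison, against 5 of the 8 complement probe sets. The members were chosen with earlier results of these data known, and 3 of those 5 probe sets read C1qb. The count is therefore a description and no independent support. This is bulk tissue, where more cells of a type and more RNA per cell cannot be told apart.

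C1qa encodes the A chain of C1q. Its probe set had a lowest, median and highest value of 8.91, 9.01 and 9.31 in Q111 striatum and of 8.38, 8.68 and 8.74 in wild-type striatum. All 6 Q111 arrays lay above all 6 wild-type arrays. The mean rose to 9.08 ± 0.16 in Q111, against 8.63 ± 0.13 in wild type (SD, n = 6 each), a difference of 0.44 (SE 0.12; 95% confidence interval 0.20 to 0.69; limma adjusted p = 0.0418). It was 0.40 within numbers 1 to 3 and 0.49 within numbers 4 to 6. The adjusted p was close to the threshold, and with the number set in the model it was 0.0682.

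C1qb encodes the B chain and has 3 probe sets. The brightest, 1437726_x_at, stands for the gene; its values were 9.31, 9.52 and 9.70 (lowest, median, highest) in Q111 striatum and 8.66, 8.82 and 8.99 in wild-type striatum. The groups did not overlap. Its mean in Q111 was 9.50 ± 0.14, and that in wild type 8.83 ± 0.13 (SD, n = 6 each), a rise of 0.67 (SE 0.12; limma adjusted p = 0.00478), and it was 0.67 within either number set.

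The second C1qb probe set, 1417063_at, read 7.21, 7.46 and 7.86 in Q111 striatum and 6.14, 6.34 and 7.18 in wild-type striatum, again without overlap. Its rise of 0.997 (SE 0.20; limma adjusted p = 0.0101) was larger than that of the brightest. Wild-type array 1, at 7.18, stood above the other wild-type arrays, which reached 6.65 at most. The third, 1434366_x_at, rose by 0.53 (SE 0.12; limma adjusted p = 0.0265), with 7.68, 7.92 and 8.04 in Q111 striatum and 7.20, 7.32 and 7.70 in wild-type striatum. Here the groups overlapped by 1 array on each side. The suffix "_x" marks probe sets in which some probes may bind other transcripts, and the 1 C1qb probe set without it showed the largest rise.

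C1qc encodes the C chain. It had 6.30, 6.69 and 6.96 (lowest, median, highest) in Q111 striatum and 4.99, 5.62 and 6.14 in wild-type striatum, and every Q111 array lay above every wild-type array. The mean in Q111 was 6.64 ± 0.25, and that in wild type 5.60 ± 0.41 (SD, n = 6 each), a rise of 1.04 or 2.06-fold (SE 0.25; 95% confidence interval 0.52 to 1.56; limma adjusted p = 0.0274). The difference was 0.97 within numbers 1 to 3 and 1.11 within numbers 4 to 6.

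Complete separation, with all Q111 arrays above all wild-type arrays in striatum, was seen in 4 of the 8 complement probe sets and in 0.714% of all kept probe sets. That count too is a description, as the members were chosen with earlier results known. For those 4, the two-sided exact permutation p over the 6 and 6 arrays was 0.00216, the smallest that this design can give. It was 0.00433 for the C1qb probe set that overlapped.

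Leaving out 1 array changed these calls. The brightest C1qb probe set passed in 24 of 24 such fits, with an adjusted p of at most 0.0146, and 1417063_at did too. C1qc and 1434366_x_at passed in 18 each and lost their calls without Q111 striatum array 1, 5 or 6 or wild-type striatum array 3, 4 or 6 (adjusted p up to 0.0634 and 0.0591). C1qa passed in 13 and lost its call without any 1 Q111 striatum array, or without wild-type striatum array 2, 3, 4, 5 or 6 (adjusted p up to 0.0905). The differences themselves stayed between 0.39 and 0.49 for C1qa, 0.63 and 0.70 for the brightest C1qb probe set, and 0.92 and 1.15 for C1qc, over 37 alternatives that include these fits.

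**Figure D1:**
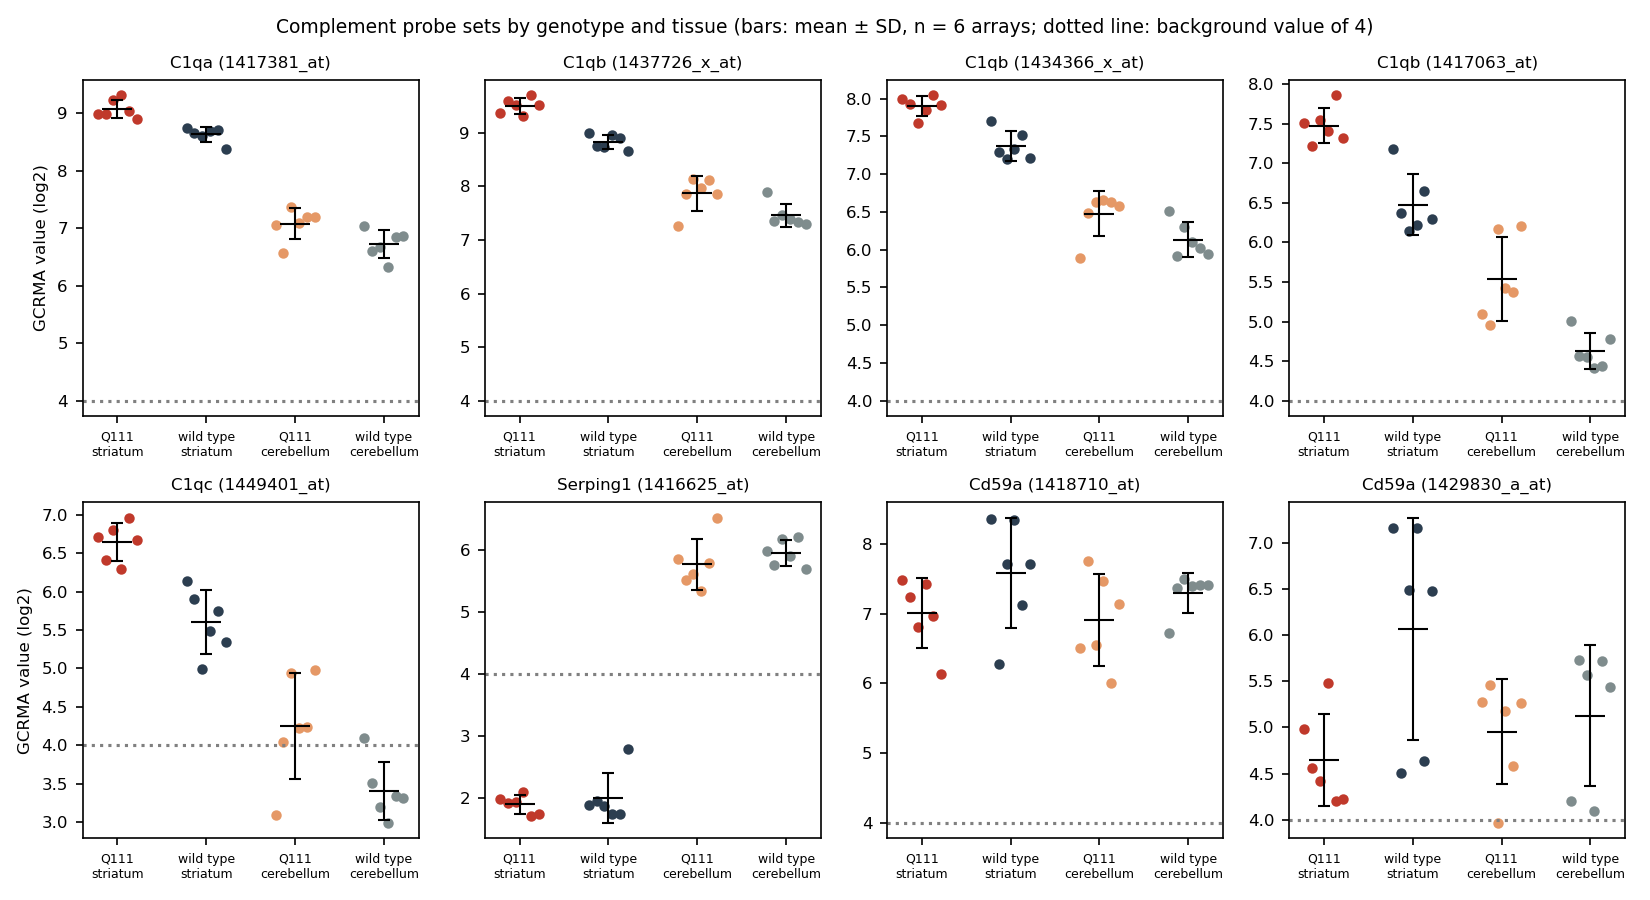
GCRMA value (log2) of each of the 8 complement probe sets on every array, by genotype and tissue; bars are the mean ± SD of 6 arrays and the dotted line is the background value of 4. The C1q probe sets stand highest in Q111 striatum, and Serping1 lies under 4 in all striatum arrays.

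Serping1 was under background in striatum. Its values ran from 1.71 to 2.09 in Q111 and from 1.74 to 2.80 in wild type, all under 4, so no fold is given. Cd59a did not pass on either probe set. Its brighter one, 1418710_at, averaged 7.01 ± 0.50 in Q111 striatum, against 7.59 ± 0.79 in wild-type striatum (SD, n = 6 each), a difference of -0.58 (95% confidence interval -1.24 to 0.08; limma adjusted p = 0.335).

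The dimmer Cd59a probe set, 1429830_a_at, read 4.20, 4.50 and 5.48 (lowest, median, highest) in Q111 striatum and 4.51, 6.48 and 7.16 in wild-type striatum. Wild-type arrays fell at separate levels: arrays 1, 3, 4 and 6 read 6.47 to 7.16, and arrays 2 and 5 read 4.51 and 4.64, within the Q111 range. The difference was -1.42 (SE 0.43), with a limma adjusted p of 0.0742 and an exact permutation p of 0.0325 for this single probe set. It was -1.39 within numbers 1 to 3 and -1.45 within numbers 4 to 6. Without wild-type striatum array 2 or 5 the adjusted p was 0.0280 or 0.0355, so the call turns on single arrays.

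Among wild-type striatum arrays, 2 pairs coincided on both Cd59a probe sets. Arrays 1 and 4 both read 7.16 on 1429830_a_at and 8.36 and 8.34 on 1418710_at. Arrays 3 and 6 read 6.48 and 6.47 on the first and 7.71 and 7.70 on the second. Arrays 2 and 5 did not coincide, at 6.28 and 7.12 on the second. Wild-type cerebellum arrays also fell at separate levels on 1429830_a_at: arrays 1 and 4 read 4.20 and 4.10, and the rest at least 5.43. There arrays 2 and 5 read 5.73 and 5.72, and arrays 3 and 6 read 5.57 and 5.43. On 1418710_at, cerebellum arrays 1 and 4 did not coincide, at 6.72 and 7.40. Over all kept probe sets, deviations from the wild-type striatum mean correlated at -0.253 between arrays 1 and 4 and at -0.388 between arrays 3 and 6. Between arrays 2 and 5 the value was -0.155. Other pairs of these arrays were not compared in this way. The 2 Cd59a probe sets correlated at r = 0.74 across the 6 Q111 striatum arrays and at r = 0.94 across the 6 wild-type striatum arrays, given as descriptions of arrays that share 1 normalisation.

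**Figure D2:**
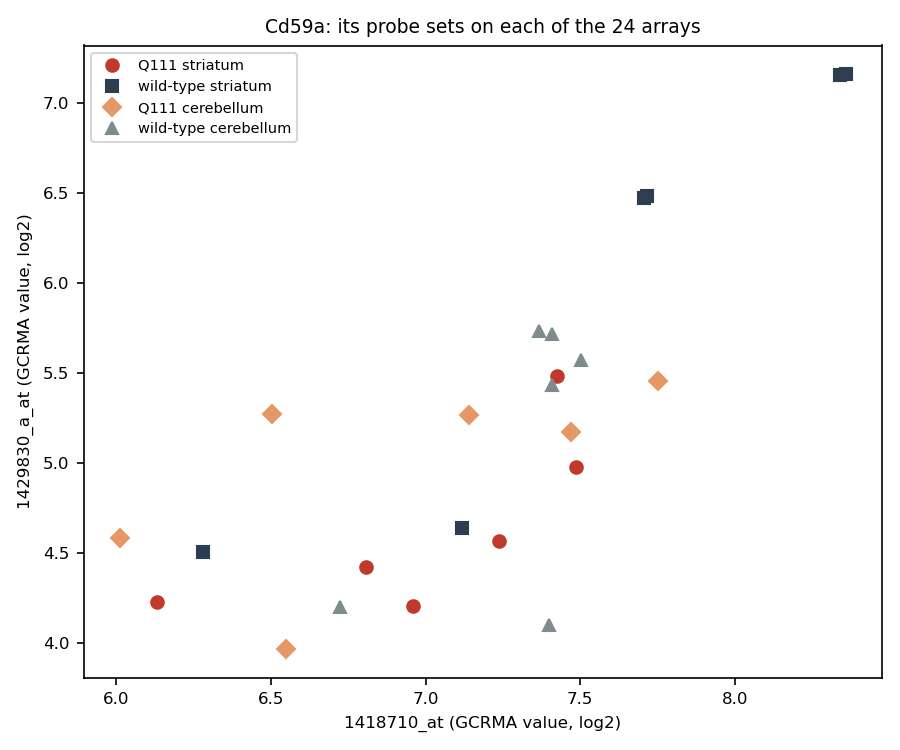
Each point is 1 array, with the brighter Cd59a probe set on the horizontal axis and the dimmer one on the vertical axis (GCRMA values, log2). The points of 4 wild-type striatum arrays lie at 6.47 or above on the vertical axis, in 2 coinciding pairs, and no other array exceeds 5.73.

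The same comparison in cerebellum, the less affected tissue, gave C1q differences in the same direction. With the standing probe set of each gene, limma called 0 of the 5 complement genes, and 1 of the 8 probe sets passed, C1qb 1417063_at. Of all kept probe sets, 0.0964% rose in cerebellum. Before adjustment 2867 probe sets had a limma p under 0.05, and all 5 C1q probe sets were among them.

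The C1qb probe set that rose, 1417063_at, read 4.96, 5.40 and 6.21 (lowest, median, highest) in Q111 cerebellum and 4.42, 4.56 and 5.01 in wild-type cerebellum. The groups overlapped by 1 array on each side. The rise was 0.91 or 1.88-fold (SE 0.20; 95% confidence interval 0.50 to 1.32; limma adjusted p = 0.0396), and 0.70 and 1.12 within numbers 1 to 3 and 4 to 6. It passed in 17 of 24 fits that left out 1 array. The call was lost without Q111 cerebellum array 3, 4 or 5 or wild-type cerebellum array 3, 4, 5 or 6 (adjusted p up to 0.116), and with the number set in the model (adjusted p = 0.0739).

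The brightest C1qb probe set averaged 7.87 ± 0.32 in Q111 cerebellum and 7.46 ± 0.22 in wild type (SD, n = 6 each), a difference of 0.41 (95% confidence interval 0.16 to 0.66; limma adjusted p = 0.130). Array 1 of either genotype stood apart: Q111 array 1 read 7.25, under all wild-type arrays, while the other Q111 arrays read 7.86 to 8.13. Wild-type array 1 read 7.89, and the other wild-type arrays at most 7.46. Nudt19 on these arrays sided with their labels. That gene was named after its values were seen, so it cannot check whether the labels of these arrays are right.

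C1qc read 3.10, 4.23 and 4.98 (lowest, median, highest) in Q111 cerebellum and 2.99, 3.34 and 4.10 in wild-type cerebellum. In Q111 1 of 6 arrays was under 4, against 5 of 6 in wild type. The difference of 0.85 (limma adjusted p = 0.128) was 0.39 with values under 4 set to 4. C1qa averaged 7.08 ± 0.27 in Q111 cerebellum and 6.73 ± 0.25 in wild type (SD, n = 6 each), a difference of 0.35 (95% confidence interval 0.11 to 0.59; limma adjusted p = 0.184). Within numbers 1 to 3 and 4 to 6 it was 0.22 and 0.48. Without Q111 cerebellum array 1, the brightest C1qb probe set (adjusted p = 0.0106) and C1qc (adjusted p = 0.0204) passed, and 1434366_x_at did too (adjusted p = 0.0445).

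Complete separation in cerebellum was seen in 0 of the 8 complement probe sets and in 0.178% of all kept ones. Serping1 averaged 5.77 ± 0.41 in Q111 cerebellum and 5.96 ± 0.21 in wild type (SD, n = 6 each), a difference of -0.18 (95% confidence interval -0.54 to 0.18; limma adjusted p = 0.677). The brighter Cd59a probe set differed by -0.40 (95% confidence interval -1.06 to 0.26; limma adjusted p = 0.611) and the dimmer one by -0.17 (95% confidence interval -1.07 to 0.72; limma adjusted p = 0.906).

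**Figure D3:**
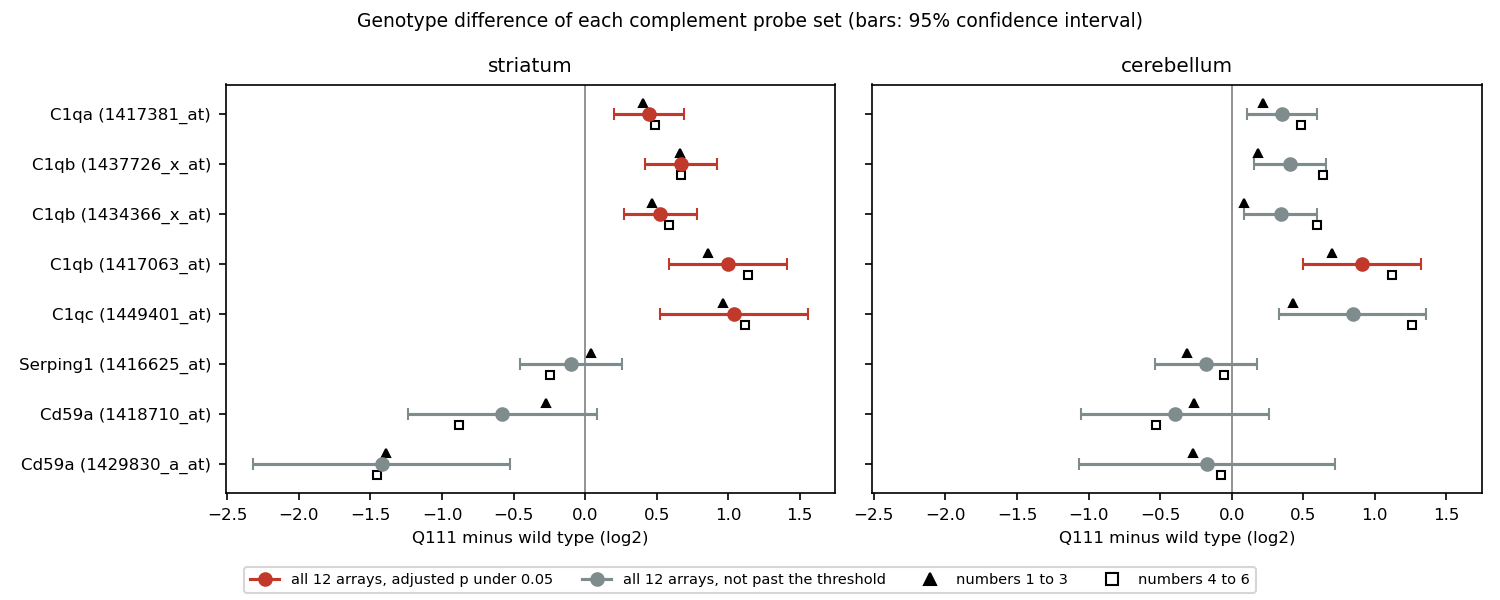
Q111 minus wild type (log2) for each complement probe set in striatum and in cerebellum, with 95% confidence intervals over all arrays, and the differences within numbers 1 to 3 (triangles) and 4 to 6 (squares). All 5 C1q probe sets lie right of 0 in both tissues and within both number sets, and the intervals of Serping1 and of 1418710_at include 0.

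Whether the genotype difference itself differs between the tissues was tested as the interaction, striatal minus cerebellar difference. It called 0 of the 8 complement probe sets, where 0.0868% of all kept probe sets passed in either direction and 2100 had an unadjusted p under 0.05. For C1qa the interaction was 0.09 (95% confidence interval -0.25 to 0.44), for the brightest C1qb probe set 0.26 (-0.10 to 0.61) and for C1qc 0.19 (-0.54 to 0.92). With values under 4 set to 4, which raises most of the wild-type cerebellum arrays of C1qc, its interaction was 0.65 (limma adjusted p = 0.340). The rise called in striatum was therefore not shown to differ from the cerebellar difference, and intervals of this width do not show that they are equal. The dimmer Cd59a probe set had the largest interaction of the 8, at -1.25 (95% confidence interval -2.52 to 0.02; limma adjusted p = 0.498).

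For C1q and Serping1 the difference between tissues was larger than that between genotypes, and for Cd59a it was smaller than the striatal genotype difference. Between wild-type striatum and wild-type cerebellum, C1qa and the 3 C1qb probe sets were higher in striatum, where 30.6% of all kept probe sets were higher. C1qc was higher too and Serping1 was lower, where 41.2% of all kept probe sets were lower. Both passed the filter through 1 tissue alone (C1qc averaged 3.83 in cerebellum and Serping1 1.95 in striatum, over both genotypes), so the filter fixed their direction and their calls are only a description. Neither Cd59a probe set passed (0.28 and 0.94; limma adjusted p = 0.430 and 0.0549; the second was 0.00901 or 0.0120 without wild-type striatum array 2 or 5). C1qa read 8.38 to 8.74 in wild-type striatum and 6.33 to 7.04 in wild-type cerebellum, a difference of 1.90 or 3.74-fold (SE 0.12; limma adjusted p = 4.49e-13). The C1qb probe sets were higher by 1.24, 1.37 and 1.85. C1qc was higher by 2.19 and, with values under 4 set to 4, by at least 1.59 or 3.00-fold.

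The order of the group means was the same for all 5 C1q probe sets: Q111 striatum, wild-type striatum, Q111 cerebellum, wild-type cerebellum. The middle neighbours touched only for 1417063_at, where wild-type striatum began at 6.14 and Q111 cerebellum reached 6.21. For C1qc, wild-type striatum began at 4.99 and Q111 cerebellum ended at 4.98.

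Serping1 read 1.74 to 2.80 in wild-type striatum and 5.69 to 6.21 in wild-type cerebellum. With values under 4 set to 4 it was at least 3.88-fold lower in striatum. It passed the filter through cerebellum alone, which fixed this direction, so no p-value is given. Markers of meningeal fibroblasts, which also make C1 inhibitor, moved the same way. Of its 6 measured genes, 4 averaged at least 4 in both tissues, and all 4 were lower in wild-type striatum, by the test that called 41.6% of all genes lower. The other 2, Col1a1 and Aldh1a2, passed the filter through cerebellum alone, which fixed their direction. With values under 4 set to 4, the median difference of the 6 was -1.76. Ptgds, a prostaglandin synthase gene, differed by -3.69, Dcn, of the matrix proteoglycan decorin, by -2.98, and the collagen gene Col1a2 by -2.10. Aldh1a2, a retinoic acid synthase gene, was under 4 in striatum and was lower by 0.71 at least. The mean of the list on an array ran from 5.20 to 5.68 in wild-type striatum and from 7.61 to 8.05 in wild-type cerebellum. It includes Col1a1 and Aldh1a2, with values under 4 as deposited, so the filter fixed the direction of part of this gap. Meningeal fibroblasts were not the only list with genes lower in wild-type striatum. Of 9 astrocyte genes 7 were lower and 1 was higher, with a median difference of -1.15. Of 5 reactive astrocyte genes 3 were lower and 1 was higher. Mrc1, of perivascular macrophages, differed by -0.57. The lists therefore do not single out 1 cell type, and the part of any of these cells in the Serping1 difference was not tested.

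**Figure D4:**
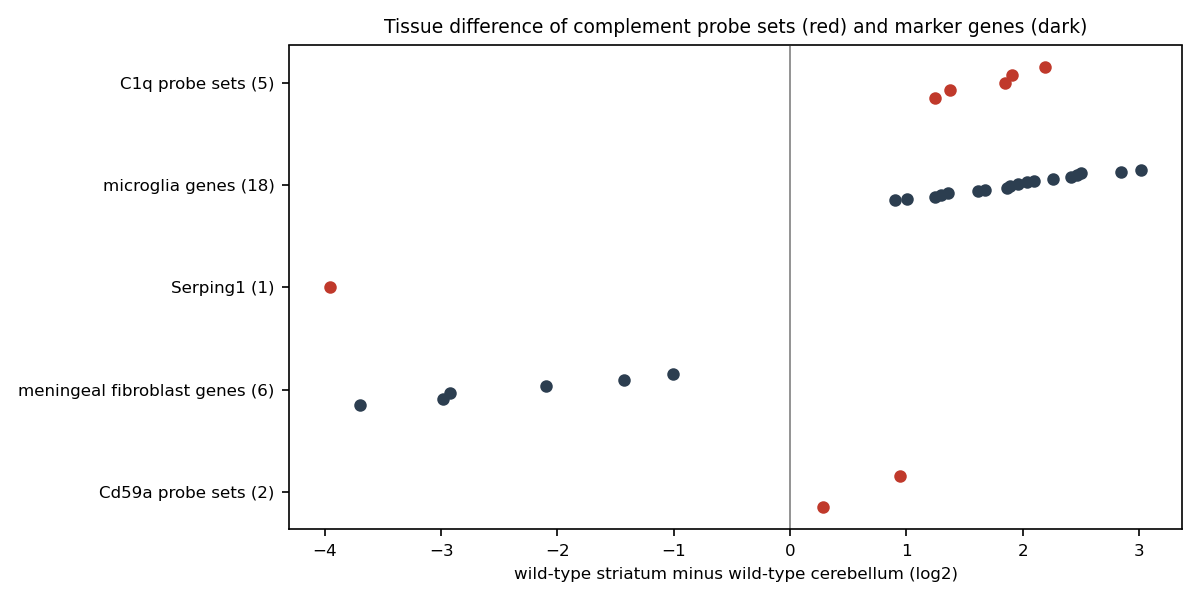
Wild-type striatum minus wild-type cerebellum (log2) for the complement probe sets (red) and for measured genes of 2 marker lists (dark), 1 point each. Other marker lists, among them that of astrocytes with most genes lower in striatum, are not drawn. The 5 C1q probe sets lie right of 0 with the microglia genes, and Serping1 lies left of 0 with the meningeal fibroblast genes; values under 4 are drawn as deposited, and C1qc, Serping1, 8 microglia and 2 meningeal genes passed the filter through 1 tissue alone.

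C1q was then set beside other genes of microglia, the cells that make most of it in brain. Of 21 listed genes 18 were measured, with the brightest probe set standing for each. In striatum 1 of the 18 rose and 1 fell, against 0.873% and 1.9% of all genes, and 16 did not pass. The median difference was -0.01, and that of all genes was -0.03. Olfml3, of a secreted olfactomedin-like protein, rose by 0.53 (limma adjusted p = 0.0203), and Aif1, which encodes the calcium-binding protein Iba1, fell by 0.34 (limma adjusted p = 0.0499). Csf1r, the receptor on which microglia depend for survival, averaged 9.38 in Q111 striatum and 9.37 in wild type. P2ry12, a purinergic receptor of surveying microglia, averaged 7.49 in Q111 striatum and 7.74 in wild type (limma adjusted p = 0.468).

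The mean of the 18 microglia genes on an array ran from 6.43 to 6.59 in Q111 striatum and from 6.38 to 6.66 in wild-type striatum, so the groups overlapped. In Q111 striatum only Mpeg1, of a pore-forming macrophage protein, averaged under 4 among them (difference -0.26 with values under 4 set to 4). In cerebellum 0 of the 18 passed with limma, against 0.0929% of all genes higher and 0.353% lower. The mean ran from 4.51 to 4.72 in Q111 and from 4.49 to 4.69 in wild type, and 8 of the 18 averaged under 4 in either genotype. Between the tissues, 10 of the 18 averaged at least 4 in both, and all 10 were higher in wild-type striatum, by 0.90 to 3.02, where 32.1% of all genes were higher. The other 8 passed the filter through striatum alone, which fixed their direction. With values under 4 set to 4, the median difference of the 18 was 1.57. The lowest adjusted p-values were those of Csf1r at 2.50, Selplg, of a selectin ligand, at 2.41, Aif1 at 1.89 and P2ry12 at 3.02.

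**Figure D5:**
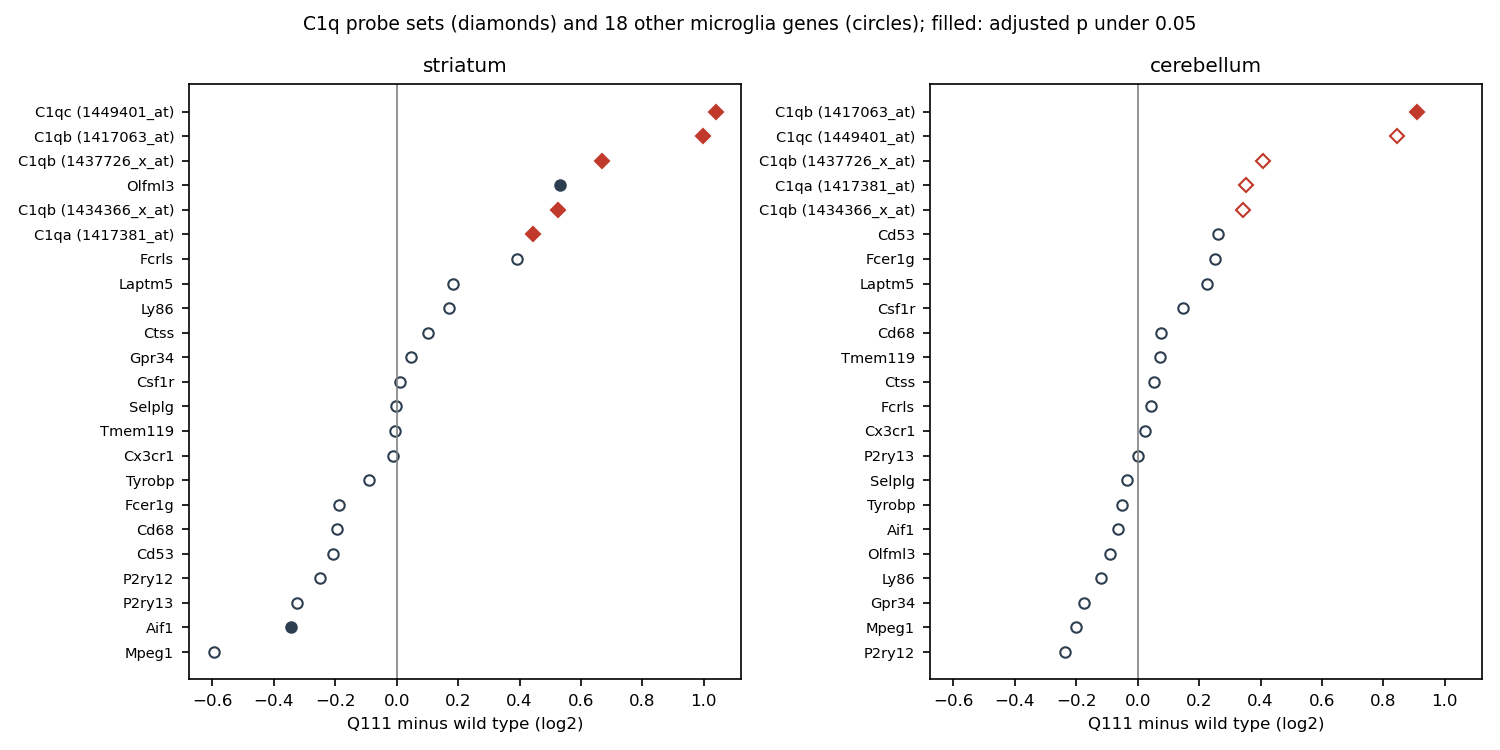
Q111 minus wild type (log2) for the 5 C1q probe sets (diamonds) and 18 other microglia genes (circles), sorted within each tissue; filled symbols passed the test. In striatum the C1q probe sets lie between 0.44 and 1.04 and the microglia genes between -0.60 and 0.53.

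The rest of the complement system was mostly at background. Of 48 other complement genes on 5 lists, 40 had a probe set of their own and 10 were measured. No group mean of the other 30 reached 4 on any probe set (highest 3.99, for the decay-accelerating factor gene Cd55). Among these were the C1q-associated protease genes C1ra (at most 2.41) and C1s1 (at most 3.76), C2 (at most 3.33), all 6 terminal pathway genes with a probe set, and the receptor genes Itgam (at most 3.26), Itgb2 (at most 3.60) and C3ar1 (at most 3.42). A rise under background cannot be seen with these values.

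Of the 10 measured genes, limma called 0 in striatum and 0 in cerebellum, with median differences of -0.08 and 0.00. Of all genes, 0.873% were called higher and 1.9% lower in striatum, and 0.0929% and 0.353% in cerebellum. A count of 0 among 10 genes is near those shares and says little of complement genes. Clu, which encodes the attack-complex inhibitor clusterin, averaged 13.75 in Q111 striatum and 13.61 in wild type (limma adjusted p = 0.309). C1qbp, of a mitochondrial protein that binds C1q, averaged 9.57 and 9.70 in those groups, and Susd4, of a complement inhibitor of the brain, 9.06 and 8.87. Cfp, of properdin, the stabiliser of the alternative pathway convertase, differed by -0.33 (limma adjusted p = 0.405). Masp1, a lectin pathway protease gene, averaged 4.03 in Q111 striatum and 3.68 in wild type, under background, and differed by 0.12 with values under 4 set to 4. Cd93, once described as a C1q receptor, differed by 0.03.

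Between the tissues 8 of the 10 differed in wild type, near the 73.8% of all genes that did, so the count says nothing particular of complement genes. Csmd3 and Csmd1, of large membrane proteins with complement control domains, were higher in striatum by 2.88 and by at least 0.23, the second against a cerebellar mean under 4. Csmd1 passed the filter through striatum alone and Masp1 through cerebellum alone, which fixed their direction. Susd4 (0.57) and Clu (0.42) were higher too, and Vtn, of vitronectin (-0.87), and Cfp (-0.83) were lower. Masp1 was lower by 1.84 at least, with values under 4 set to 4. Cd93 was lower by 0.12 (limma adjusted p = 0.0465), at levels near 4.

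Markers of other cells were measured in the same striatum arrays, where 0.873% of all genes were called higher and 1.9% lower. Of 9 astrocyte genes and 5 reactive astrocyte genes, limma called 0, with medians of 0.03 and -0.02. Of 7 endothelial and mural genes 2 fell, with differences of -0.73 for Cldn5, of endothelial tight junctions, and -0.30 for Rgs5, of pericytes. The mean of that list on an array ran from 6.90 to 7.04 in Q111 striatum and from 7.13 to 7.43 in wild type, without overlap. Of 6 cerebral cortex neuron genes 2 rose, Neurod6 by 1.12 and Fezf2 by 0.71, all 6 were higher with a median of 0.54, and the list mean ran from 6.80 to 7.90 in Q111 striatum and from 6.49 to 7.17 in wild type. Of 6 oligodendrocyte genes limma called 0, 5 were lower with a median of -0.25, and the list mean ran from 10.75 to 11.42 in Q111 striatum and from 11.20 to 11.43 in wild type. Of 4 measured interferon response genes Ifit2 rose, by at least 0.64 with values under 4 set to 4, and of 6 meningeal fibroblast genes Ptgds rose, by 0.59. Of 1 measured gene of perivascular macrophages, which also make C1q, Mrc1 differed by 0.04, and the other 5 on that list, among them Cd163, Lyve1 and Pf4, were not measured above background. No blood gene was measured above background. The part of these cells in the C1q rise was not tested.

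How the C1q genes vary from array to array was examined after subtracting each group mean, over 12 arrays a tissue. In cerebellum the brightest C1qb probe set and C1qc correlated at r = 0.79 (permutation p = 0.0038, adjusted 0.0228 over 6 relations) and rho = 0.53 (permutation p = 0.0789, adjusted 0.158). Without the 2 arrays farthest in C1qb, r was 0.39, so the relation rests on those arrays. In striatum the same pair had r = 0.54 (permutation p = 0.0672, adjusted 0.154) and rho = 0.62 (permutation p = 0.0338, adjusted 0.102). C1qa and C1qc had r = 0.53 in cerebellum (adjusted permutation p = 0.154) and r = 0.20 in striatum, and C1qa and C1qb r = 0.36 in cerebellum and r = 0.14 in striatum. Without the 2 arrays farthest in C1qa, these values were 0.63, 0.37, 0.62 and 0.27 in the same order, and the striatal value of C1qb and C1qc was 0.39 without the 2 farthest in C1qb. After subtracting the means of the number sets too, r was 0.74 for C1qb and C1qc in cerebellum and 0.56 in striatum. In cerebellum C1qc was under 4 on 5 of 6 wild-type arrays and 1 of 6 Q111 arrays. Its correlations in cerebellum therefore rest in part on background values.

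Over all 24 arrays and with group means subtracted, the genes closest to C1qa were Trim67 (r = 0.77), Msn (r = 0.75) and Dapk3 (r = 0.75), and those closest to C1qb were Mast2 (r = 0.71), Ext2 (r = 0.69) and Cst3 (r = 0.68). C1qc was closest to Rhbdd2 (r = 0.77), Qtrt1 (r = 0.75) and Slc1a1 (r = 0.73). Serping1 was closest to Rab5if (r = 0.76), Mad2l2 (r = 0.74) and Pgm3 (r = 0.74), and Cd59a to Ahi1 (r = 0.82), Zfp280b (r = 0.82) and Rcl1 (r = 0.76). These are the highest of 10761 genes, over arrays that share a normalisation, and none of the 15 is on the microglia or other complement lists. None passed the test between genotypes in either tissue. Serping1 was under 4 on all striatum arrays and C1qc on most wild-type cerebellum arrays, so the correlations of both rest in part on background values.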

How the data were processed

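The values are those the authors deposited, 24 arrays in 1 table, made by GCRMA per the submitters' processing notes, which name no version. The log base is not stated. Deposited values ran from -0.77 to 16.33, with array medians of 3.38 to 3.51, and were read as log2. Probe sets were named from the platform annotation of 2016, and the GRCm38.p6 gene table changed 0 symbols. After leaving out 64 control probe sets, those with a mean of at least 4 in striatum or in cerebellum were kept (20738 of 45037).

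A model with 1 mean per group was fitted to all 24 arrays with limma 3.58.1 in R 4.3.3. P-values were adjusted by Benjamini-Hochberg over what was kept. The fit was tested on simulated data. Where a gene had several probe sets, the brightest on average stood for it (10766 genes). Named were all members, up to 4 called genes of each list (where none passed, up to 3 of the highest mean), and for each member the 3 genes most alike. Drd2, Pcp2, Nudt19, the genes named as under background and, beyond their places under this rule, Csf1r, P2ry12, Mpeg1, Clu, Masp1, Cfp and Cd93 were named after their values were seen. Members and lists were chosen with earlier results of these data known. Alternatives covered filter, scaling, variance prior, array weights, replicate numbers, number sets, samples fitted, background value, standing probe set and each array left out. The number of arrays limits the precision.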

Additional observations from a re-analysis of the deposited data

Results flagged for a closer look

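In groups of 6 arrays, 5 of 32 combinations of probe set and group held an array whose gap to its nearest neighbour took up more of the group's range than Dixon's 95% limit allows; chance alone flags about 1 group in 20. On C1qb 1437726_x_at, Q111 cerebellum array 1 read 7.25 with the next array at 7.86, and wild-type cerebellum array 1 read 7.89 with the next at 7.46. On C1qb 1434366_x_at, Q111 cerebellum array 1 read 5.88 with the next at 6.48. On Cd59a 1418710_at, wild-type cerebellum array 1 read 6.72 with the next at 7.37. On Serping1 1416625_at, wild-type striatum array 6 read 2.80 with the next at 1.95, both under background. No complement probe set had a genotype difference that differed between the tissues by the interaction test.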

How the results depend on the processing

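Limma called 3 complement genes in striatum, and 1 without a filter, 1 with a replicate block common to both tissues, 0 with a replicate block within each tissue and 0 in numbers 1 to 3 only. The replicate blocks leave fewer degrees of freedom and numbers 1 to 3 fewer arrays. Without a filter the adjustment covers 45037 probe sets. The causes of these changes were not tested. Leaving out 1 array gave 1 to 3. It gave 1 without Q111 striatum array 1, 5 or 6 or wild-type striatum array 3, 4 or 6. In cerebellum 0 were called, 1 with the dimmest probe set standing for each gene, and 0 to 2 with 1 array left out (2 without Q111 cerebellum array 1). The interaction gave 0 under each alternative run, and the tissue comparison 4 with each array left out. Deviations of same-numbered arrays of the 2 genotypes correlated at -0.409 to -0.0881 in striatum and -0.423 to 0.119 in cerebellum. The near-equal means of the number sets can push such values under 0, so they do not settle whether the numbers pair the arrays. Striatum and cerebellum arrays of the same number were not compared in this way. The replicate block within each tissue was not run for the tissue comparison, in which it cannot be estimated, and the fit on the compared groups alone is the main one for the interaction. Every C1q difference between genotypes kept its sign under all 37 alternatives, in either tissue. In striatum C1qa passed in 18 of the 37, C1qc in 27, and the C1qb probe sets 1437726_x_at in 35, 1417063_at in 36 and 1434366_x_at in 28; C1qa lost its call without a filter (adjusted p = 0.0788), with median centring (0.0575), with array weights (0.0578) and with either replicate block (0.0550 and 0.0668). Quantile normalisation turned the 173 probe sets higher and 422 lower in striatum into 310 and 332, and the 20 and 75 of cerebellum into 45 and 39; the brightest C1qb probe set then rose by 0.69 in striatum. With 1 array left out, the probe sets called ranged from 219 to 689 in striatum and from 34 to 252 in cerebellum. Values under 4 limit what can be seen of Serping1 in striatum and C1qc in cerebellum.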
